A study of Homo sapiens with 2 samples.

Results

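The transcripts of 8 lysosomal proteases were followed in blood cells emerging from human pluripotent stem cells. The genes were chosen by symbol, 8 of the 32738 genes in the matrix, and are the cathepsins *CTSB*, *CTSD*, *CTSS*, *CTSZ*, *CTSC*, *CTSH* and *CTSW* and the asparaginyl endopeptidase legumain, *LGMN*. CD34+ cells derived from the induced pluripotent stem cell line iPS11 had been kept for 5 days in medium for the endothelial-to-hematopoietic transition (EHT), in which blood cells bud from hemogenic endothelium. The plates were uncoated, or coated with the notch ligand DLL4, the adhesion molecule VCAM1 or both. Nonadherent cells from 3 wells were combined for each coating, stained with 1 of 4 hashtag antibodies, mixed and captured together. The experiment is thus 1 library from 1 cell line without replicates, no p-value can be given, and the intervals below cover counting error only.

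Lysosomal proteases are made as inactive precursors, travel to the lysosome mostly by the mannose 6-phosphate receptor, and are activated there at acid pH. Macrophages use them to digest what they engulf, and dendritic cells and macrophages use several of them to trim the invariant chain and antigens for HLA class II. In neutrophil and mast cell precursors, cathepsin C has a further role, since it removes a dipeptide from the serine proteases of the granules and so activates them.

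Of the 10836 barcodes, which the gene and hashtag tables share, 8488 were called for a single hashtag. Of these, 7550 had at most 36000 unique molecular identifiers (UMIs), 6000 genes and 18% mitochondrial UMIs, and they held 142110950 UMIs, between 28522216 and 40416478 for each hashtag. The labels do not tie a hashtag to a coating, so hashtags are named by number (0252, 0253, 0254 and 0255, with 2136, 1996, 1847 and 1571 cells). Cells were placed in a group when they had at least 5 UMIs of its marker genes, in a fixed order. This gave 129 collagen cells (*COL1A1*, *COL1A2*, *COL3A1*), 809 C1Q cells (*C1QA*, *C1QB*, *C1QC*), 294 *EPX* cells, 107 *ELANE* cells and 21 *CPA3* cells. A further 642 cells, called *HLA-DRA* cells, passed on *HLA-DRA* and had fewer than 5 C1Q UMIs. There were 494 HBD/PF4 cells and 1839 CD34/GATA2 cells with a UMI of both genes. The remaining 3215 cells passed no gate.

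Markers that the gates did not use were compared between each group and all other cells. At least 2-fold higher were 8 of 8 macrophage markers in C1Q cells, 5 of 5 neutrophil progenitor markers in *ELANE* cells, 4 of 5 eosinophil markers in *EPX* cells, 6 of 6 stromal markers in collagen cells and 6 of 6 erythroid and megakaryocyte markers in HBD/PF4 cells. Over all genes, the share at this level was between 0.677% in CD34/GATA2 cells and 11.4% in collagen cells. The *HLA-DRA* cells (2.65% of all genes) had 6 of 10 monocyte and dendritic markers and 1 of 8 macrophage markers at this level. Of the 6, *HLA-DPA1*, *HLA-DPB1* and *CD74* belong to HLA class II like the gate gene, so their rise may follow from the gate. *CD1C*, *CLEC10A* and *IRF8* were the others. C1Q cells had 9 of the same 10, with a summed level of 4394 against 2380 UMIs in every 1000000. Some groups held more than their name says. The *HLA-DRA* cells held C1Q transcripts below the gate, with a *C1QC* UMI in 27.4% of them. Their *C1QC* level was 25.7 UMIs in every 1000000, against 770 in C1Q cells and 1.70 in CD34/GATA2 cells. Of the 129 collagen cells, 34 also passed the C1Q gate, and 4 of 8 macrophage markers were 2-fold higher in the group. The *CPA3* cells had 5 of 6 mast cell and basophil markers but also 3 of 5 eosinophil markers and 3 of 6 erythroid and megakaryocyte markers. The *EPX* cells had 3 of 5 neutrophil progenitor markers and 3 of 6 mast cell and basophil markers. All but 1 of the 494 HBD/PF4 cells passed on *HBD*, and only 2 had 5 *PF4* UMIs. In CD34/GATA2 cells, only *CYTL1* of 6 further progenitor markers was 2-fold higher, so this group is named by its gate genes alone. Median depth was lowest in *ELANE* and C1Q cells (13350 and 13648 UMIs) and highest in CD34/GATA2 cells (20790). With each cell thinned to 5000 UMIs, 0 of the 50 protease levels from at least 100 UMIs moved by more than 1.5-fold. The part of depth in the values was not otherwise tested. Levels below are in CPM, the count of a gene for every 1000000 UMIs of its group. The assay counts 1 end of each transcript, so levels of different genes can be set side by side without dividing by length.

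C1Q cells carried the most protease transcripts. The 8 genes summed to 1868 CPM there, against 1251 in collagen cells, 1034 in *ELANE* cells, 949 in *HLA-DRA* cells and 557 in CD34/GATA2 cells. Relative to all other cells, 6 of the 8 genes were at least 2-fold higher in C1Q cells and none lower, where 6.65% of 14767 genes were that much higher and 6.28% lower. The highest ratio was that of *CTSB* at 5.94-fold (5.71 to 6.19), followed by *CTSS* at 5.53-fold, *CTSH* at 4.90-fold, *LGMN* at 3.78-fold, *CTSZ* at 2.43-fold and *CTSC* at 2.28-fold. *CTSD* and *CTSW* stayed under 2-fold, at 1.56 and 1.48. All 8 genes were higher in C1Q cells than in the other cells of the same hashtag in each of the 4 hashtags.

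**Figure D1:**
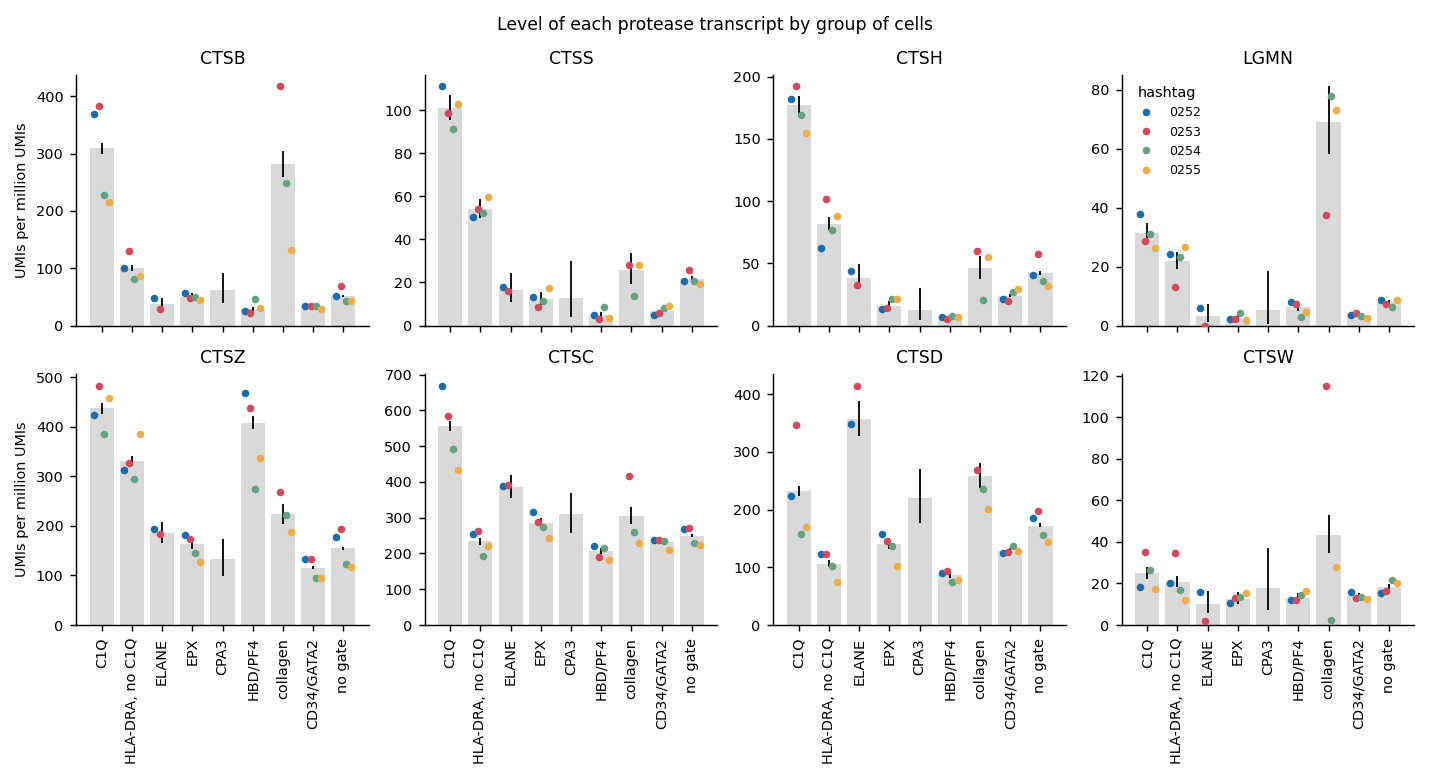
CPM of each protease gene (vertical axis) in each group of cells (horizontal axis). Bars give the pooled level with its exact Poisson 95% interval and points give the hashtags with at least 20 cells in the group. By pooled level, *CTSB*, *CTSS* and *CTSH* stand highest in C1Q cells and *CTSZ* is high in both C1Q and HBD/PF4 cells. *CTSD* has its highest pooled level in ELANE cells and *LGMN* in collagen cells.

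Among the endopeptidases, *CTSB* and *CTSS* were far higher in C1Q cells than in CD34/GATA2 cells. *CTSB* encodes cathepsin B, an endopeptidase that also removes dipeptides from the carboxyl end. Its level in C1Q cells was 309 CPM (299 to 319), with 369, 383, 228 and 215 in hashtags 0252 to 0255. In CD34/GATA2 cells it was 33.0, with 33.8, 33.7, 34.1 and 29.0 in the same order, so no hashtag of one group overlapped the other. The ratio was 9.37 (8.79 to 9.99). The full order of *CTSB* was C1Q, collagen (281), *HLA-DRA* (100), *CPA3* (61.3), *EPX* (50.6), *ELANE* (37.0), CD34/GATA2 and HBD/PF4 (28.2). C1Q and collagen cells did not separate, since collagen cells were the higher in 3 of 4 hashtags, and neither did *CPA3* and *EPX* cells, whose ratio was 0.825 (0.543 to 1.31). *CTSB* reached 124 UMIs in a single cell, and the 378 cells with the most *CTSB* held 37.0% of its UMIs.

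*CTSS*, the endopeptidase that cleaves the invariant chain in antigen-presenting cells and keeps activity at neutral pH, had 101 CPM in C1Q cells (95.4 to 107) and 54.2 in *HLA-DRA* cells. The hashtags ranged from 91.2 to 111 in the first and from 50.6 to 59.5 in the second, without overlap. In CD34/GATA2 cells it was 6.62 and in HBD/PF4 cells 4.85, so C1Q cells exceeded CD34/GATA2 cells 15.3-fold (13.3 to 17.5), the widest ratio of the 8 genes between these groups. A *CTSS* UMI was found in 72.1% of C1Q cells and in 8.10% of HBD/PF4 cells, which had the greater median depth (19452 against 13648 UMIs). After thinning to 5000 UMIs per cell the shares were 41.3 and 2.23%. Free RNA in the droplets was not measured. The share in HBD/PF4 cells may hold such RNA and transcripts of the cells themselves, and the part of each was not tested. *EPX* (12.2), *CPA3* (12.8) and *ELANE* cells (16.6) lay close together and were not separated by their intervals.

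*LGMN* cleaves after asparagine and processes other cathepsins. It was the rarest of the 8 genes, with 1460 UMIs in all, and collagen cells rather than C1Q cells had the most. Collagen cells had 68.9 CPM (58.1 to 81.1), C1Q cells 31.4 (28.3 to 34.7), *HLA-DRA* cells 21.9 (19.2 to 24.8) and HBD/PF4 cells 6.44. The *ELANE*, CD34/GATA2 and *EPX* cells were at 3.19, 3.42 and 2.44, with intervals that overlap. The 4 hashtags of collagen cells ranged from 37.6 to 99.6 and all exceeded their own hashtag's C1Q cells. With at most 10% mitochondrial UMIs the order was lost, at 82.6 in 50 collagen cells and 84.6 in 63 C1Q cells. *LGMN* was found in 50.4% of collagen cells and 4.42% of *EPX* cells (23.0 and 1.03% after thinning, with median depths of 15623 and 19258 UMIs). Of the 107 *ELANE* cells 5 had an *LGMN* UMI, all of hashtag 0252, and the 36, 7 and 6 *ELANE* cells of hashtags 0253, 0254 and 0255 had none. In *CPA3* cells only 2 UMIs were counted, 5.11 CPM with an interval of 0.619 to 18.5.

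The aspartic protease *CTSD* followed a different order. This endopeptidase, cathepsin D, had its highest pooled level in *ELANE* cells. It was 357 CPM there (328 to 388), with 348, 414, 203 and 340 in hashtags 0252 to 0255. Collagen cells followed at 258, C1Q cells at 232, *CPA3* cells at 220 and *EPX* cells at 140. By hashtag, collagen cells had 425, 269, 236 and 201, more than *ELANE* cells in 0252 and 0254, so these groups did not separate. *HLA-DRA* cells (106) and HBD/PF4 cells (86.9) had the least. *ELANE* cells exceeded *EPX* cells 2.54-fold (2.28 to 2.83) and CD34/GATA2 cells (129) 2.77-fold (2.53 to 3.02), in 4 of 4 hashtags each. Hashtags 0254 and 0255 had only 7 and 6 *ELANE* cells. *CTSD* was the single gene of the 8 that was 2-fold higher in *ELANE* cells than in all other cells, at 2.32-fold, against 5.37% of all genes. With at most 10% mitochondrial UMIs, which left 55 *ELANE* and 63 C1Q cells, this call was lost, and *CTSD* was 366 in *ELANE* cells and 430 in C1Q cells. *LGMN* was the single gene 2-fold lower (10.5% of all genes). *CTSB* lay at that limit, with 0.498 of the level of other cells and a log2 difference of -0.99 after adding 1 to each level.

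The start of *CTSD* is shown for its E-box CACGTG, the letters bound by *TFEB* and related factors at lysosomal genes. *TFEB* itself was 30.2 CPM in C1Q cells and 1.91, from 3 UMIs, in *ELANE* cells. Of 5 listed transcription factors, *TFEC* was 2-fold higher in *ELANE* cells (5.37% of all genes). *TFEB* and *MITF* were 2-fold lower there (10.5%). Binding of these factors to the E-box was not tested. Promoters of 300 bases, from 250 before to 50 after the RefSeq start (GRCh38.p14 table), were found for *CTSD*, *CTSZ*, *CTSC* and *CTSH*, 4 of the 8. Each matched 1 place in GRCh37 on the chromosome and strand of its gene, and other chromosomes were not searched. These promoters were read on both strands for CACGTG and for its longer form CACGTGAC. They were also read for AGATAA, a site of GATA factors, and for GAGGAA, a site of PU.1, the product of *SPI1*. *CTSD* held a CACGTG 47 bases before its start, within CACGTGAC. Of 27305 promoters of this length, 7.43% held CACGTG and 2.53% CACGTGAC. *CTSH* held AGATAA at 217 and at 194 bases before its start (10.5% of promoters hold at least 1) and GAGGAA on the other strand between them (27.6%). None of these letters was in the *CTSZ* and *CTSC* windows. The stretches below are from the minus strand of GRCh37, 5′ to 3′, with the E-box or the AGATAA in capitals, at chr11:1785177-1785226, chr15:79237578-79237627 and chr15:79237555-79237604. The *CTSH* stretches overlap each other.
CTSD: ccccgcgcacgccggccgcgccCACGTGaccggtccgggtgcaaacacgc
CTSH, 217 before the start: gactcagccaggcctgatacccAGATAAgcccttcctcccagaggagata
CTSH, 194 before the start: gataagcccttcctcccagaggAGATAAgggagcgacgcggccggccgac

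Among the exopeptidases, *CTSC* led in most groups. Cathepsin C, or dipeptidyl peptidase I, was the most abundant of the 8 genes, with 38432 UMIs and a UMI in 95.8% of cells. Its level was 556 CPM in C1Q cells (543 to 570), 386 in *ELANE* cells (356 to 418), 309 in *CPA3* cells, 306 in collagen cells and 286 in *EPX* cells (273 to 300). *HLA-DRA* cells (234), CD34/GATA2 cells (232) and HBD/PF4 cells (206) had the least, and the first 2 of these did not separate, with a ratio of 1.01 (0.965 to 1.05). Its range over groups was narrow, and C1Q cells exceeded CD34/GATA2 cells 2.40-fold. *PRTN3*, a granule serine protease that it activates, varied far more. *PRTN3* had 19126 CPM in *ELANE* cells, 2317 in *EPX* cells and 117 in CD34/GATA2 cells, where *CTSC* went from 386 to 286 and 232. C1Q cells had 173 *PRTN3* and 556 *CTSC*, and *CPA3* cells 51.1 and 309. Since *ELANE* is also a granule serine protease, the high *PRTN3* in *ELANE* cells may follow from the gate.

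*CTSZ*, the carboxypeptidase cathepsin Z or X, had 2 peaks. C1Q cells had 437 CPM (425 to 448), and HBD/PF4 cells had 408 (395 to 421). Their counting intervals did not overlap, but HBD/PF4 cells were higher in 1 of 4 hashtags, with 467, 438, 274 and 336 against 423, 482, 386 and 458 in C1Q cells. *HLA-DRA* cells followed at 331, and all remaining groups lay between 115 and 223. HBD/PF4 cells exceeded CD34/GATA2 cells (115) 3.53-fold (3.39 to 3.69), in each hashtag. *CTSZ* was the single gene of the 8 that was 2-fold higher in HBD/PF4 cells (2.20-fold, with 4.19% of all genes higher), whereas *CTSB*, *CTSS* and *CTSH* were 2-fold lower (7.17% of all genes). With at most 10% mitochondrial UMIs, which left 17 HBD/PF4 cells, *CTSZ* was 383 and no longer 2-fold higher, and 5 genes were 2-fold lower.

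Within HBD/PF4 cells, *CTSZ* moved with the megakaryocyte integrin *ITGA2B*. The 323 cells with at least 5 *ITGA2B* UMIs had 453 *CTSZ* CPM (438 to 469) and the other 171 had 301 (282 to 322). The same was seen in CD34/GATA2 cells, at 175 (165 to 186) in 278 cells with at least 5 *ITGA2B* UMIs and 104 (101 to 108) in 1561 with fewer. *CTSB* went the other way in HBD/PF4 cells, at 21.5 with at least 5 *ITGA2B* UMIs and 43.9 below this limit. Hashtags were unevenly spread, with 141, 112, 46 and 24 HBD/PF4 cells above the limit and 43, 63, 47 and 18 below it. Within hashtags 0252 to 0255 the ratio of *CTSZ* was 1.28, 1.38, 1.49 and 2.11 in HBD/PF4 cells and 1.79, 1.68, 1.27 and 1.12 in CD34/GATA2 cells, where the last had an interval of 0.838 to 1.47. That of *CTSB* in HBD/PF4 cells was 0.438, 0.507, 0.636 and 0.506, the last with an interval of 0.214 to 1.18. This split was made after values had been seen. Cells with at least 5 *ITGA2B* UMIs were also deeper (medians of 21262 and 17190 UMIs in HBD/PF4 cells), and the part of depth was not tested.

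*CTSH*, cathepsin H, is mainly an aminopeptidase. It paralleled *CTSS*, with 177 CPM in C1Q cells (169 to 184), 81.8 in *HLA-DRA* cells (76.7 to 87.3) and 45.9 in collagen cells. The hashtags ranged from 155 to 192 in C1Q cells and from 62.5 to 102 in *HLA-DRA* cells. *ELANE* cells (38.3) exceeded *EPX* cells (16.0) 2.39-fold (1.69 to 3.34). HBD/PF4 cells had 6.24, which was 0.260 of the level in CD34/GATA2 cells (0.198 to 0.335) and lower in all 4 hashtags. A *CTSH* UMI was found in 83.1% of C1Q cells and 10.5% of HBD/PF4 cells (55.7 and 2.84% after thinning).

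*CTSW*, known from cytotoxic lymphocytes, had a narrow range over most groups when hashtags were pooled. Its level lay between 10.2 CPM in *ELANE* cells and 25.0 in C1Q cells, apart from 43.1 in collagen cells (34.6 to 52.9). In the collagen group 61 of the 90 UMIs came from hashtag 0253, where the level was 115, against 16.6, 2.29 and 28.1 in hashtags 0252, 0254 and 0255. Without hashtag 0253 it was 18.6 and no longer 2-fold higher than in other cells. Lymphocyte genes were mixed in the 29 cells with 5 or more *CTSW* UMIs. *PRF1* (8.65 against 0.955 CPM in all other cells) and *IL2RB* (4.33 against 0.573) were higher, each from only 2 of the 29 cells. *IL7R* (21.6 against 6.24) and *CD3E* (31.7, with a ratio between 1.42 and 3.45) were higher, from 7 and 4 cells. *NKG7* (146 against 91.2) was higher, with a UMI in 26 cells and in 62.5% of other cells. By group, 6 of the 29 were C1Q, 5 *HLA-DRA*, 4 collagen, 2 HBD/PF4 and 2 CD34/GATA2 cells, and 10 passed no gate. Over all C1Q, *HLA-DRA* and collagen cells, *NKG7* was 219, 178 and 70.8 and *IL7R* was 40.2, 2.28 and 21.1. The part of the groups in these differences was not tested. *CD7* was not separated, and *GNLY* and *KLRD1* had no UMI, with intervals too wide to show a difference. Of the 29 cells, 16 carried hashtag 0253, and their *SPP1*, *TREM2* and *APOE* levels were 4168, 192 and 329 CPM, against 256, 27.6 and 70.5 in the other cells. *GZMB* stood at 73.5 against 1.44, from 2 cells. The *CTSW* locus overlaps *FIBP* on the opposite strand in the hg19 annotation (chromosome 11, 65647280 to 65651212), and strand handling is not given in the sources used here.

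Taking the 8 genes as a whole, the mixture differed between several groups but was close in *EPX* and CD34/GATA2 cells. In these 2 groups *CTSZ* took 23.9 and 20.7% and *CTSD* 20.5 and 23.1%. The shares in *CPA3* cells rest on 302 UMIs. *CTSC* made up 41.9% of their UMIs in *EPX* cells, 41.6% in CD34/GATA2 cells, 40.1% in *CPA3* cells, 29.8% in C1Q cells and 24.4% in collagen cells. In *ELANE* cells *CTSC* and *CTSD* were close, at 37.3 and 34.5%. *CTSZ* led in HBD/PF4 cells at 53.7% and in *HLA-DRA* cells at 34.8%. *CTSB* took 22.4% in collagen cells and 16.5% in C1Q cells but 3.58% in *ELANE* cells and 3.71% in HBD/PF4 cells. *CTSH* and *CTSS* took 9.46 and 5.40% in C1Q cells and 8.62 and 5.71% in *HLA-DRA* cells. In collagen cells the order of the first places was not firm, since the interval of *CTSC* began at 22.8%, and *CTSD* led with 24.3% among collagen cells that passed no other gate.

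**Figure D2:**
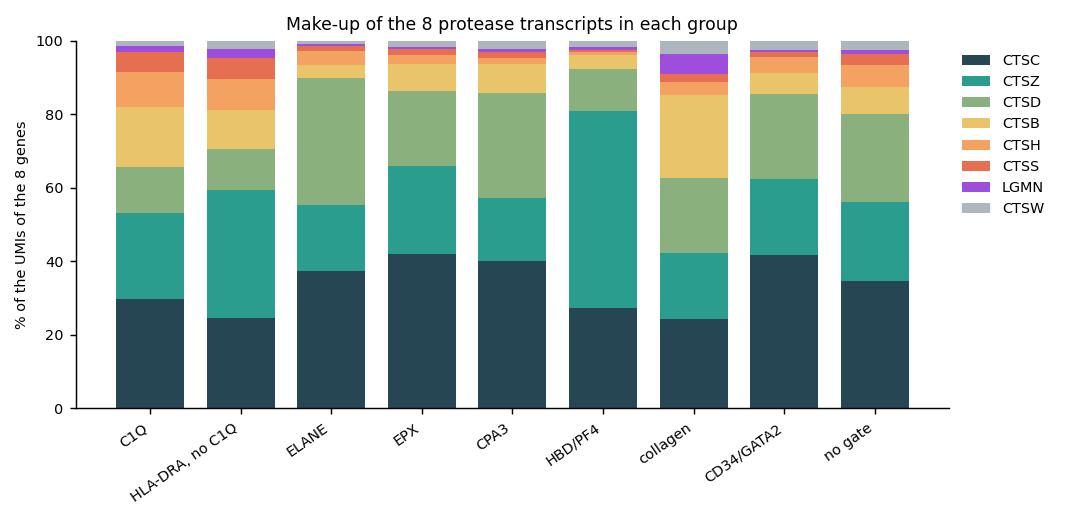
Share of the UMIs of the 8 protease genes, in percent (vertical axis), that each gene took in each group (horizontal axis). *CTSC* is the largest block in most groups, *CTSZ* fills 53.7% in HBD/PF4 cells, and *CTSB* takes 22.4% in collagen and 16.5% in C1Q cells.

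The *HLA-DRA* cells, which lay under the C1Q gate of 5 UMIs, differed from C1Q cells in amount and in mixture. Against all other cells, *CTSS* and *LGMN* were 2-fold higher, 2 of 8 genes (2.65% of all genes), at 2.38-fold and 2.36-fold, and none was 2-fold lower (4.85%). Neither call held with gates of 3 UMIs, nor with 10 added to each level in place of 1, nor with at most 10% mitochondrial UMIs, which left 34 of these cells. C1Q cells exceeded them 3.09-fold for *CTSB* (2.89 to 3.30), 2.38-fold for *CTSC*, 2.19-fold for *CTSD*, 2.16-fold for *CTSH* and 1.86-fold for *CTSS*, in 4 of 4 hashtags each. The gap was smaller for *CTSZ* at 1.32-fold (1.27 to 1.38) and *LGMN* at 1.43-fold (1.22 to 1.69). *CTSD* was lower in *HLA-DRA* cells than in CD34/GATA2 cells in all hashtags, with a ratio of 0.821 (0.770 to 0.874).

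In the granulocyte groups, *EPX* cells had no gene of the 8 at 2-fold higher (1.69% of all genes) and 3 at 2-fold lower, *CTSS*, *CTSH* and *LGMN* (6.16%). *CTSS* was near the limit at 0.472 and lost its call without hashtag 0253, with gates of 10 UMIs and with gates per depth. *CPA3* cells likewise had none higher (6.74%) and only *CTSH* lower (16.4%), from 5 UMIs in 21 cells. Compared with *CPA3* cells, *EPX* cells had less *CTSD*, with a ratio of 0.639 (0.511 to 0.808), and the other 7 genes were not separated by their intervals. The 20 cells that passed both gates had 108 *CTSB* CPM (75.7 to 150), against 47.0 in *EPX* cells without *CPA3* (41.4 to 53.2).

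CD34/GATA2 cells sat at the low end. None of the 8 genes was 2-fold higher (0.677% of all genes) and 5 were 2-fold lower, *CTSB*, *CTSS*, *CTSZ*, *CTSH* and *LGMN* (4.55%). The ratios to all other cells were 0.368, 0.204, 0.492, 0.419 and 0.265, and none was higher in any hashtag. *CTSZ* lost the call without hashtag 0254 and with gates of 10 UMIs. With 10 added to each level in place of 1, only *CTSB* and *CTSS* stayed 2-fold lower, and with C1Q cells without *HLA-DRA* alone as the C1Q group, only *CTSS* and *LGMN* did. *CTSC* and *CTSD* stayed closest to other cells, at 0.813 and 0.775. Among the 3215 cells without a gate, the 680 with at least 50 UMIs of *MPO*, the myeloperoxidase of early granulocyte precursors, had more *CTSD* (241 against 152 CPM), *CTSC* (337 against 224), *CTSZ* (195 against 143) and *CTSH* (58.0 against 37.5) than the 2535 with less, whereas *CTSW* was lower (13.3 against 19.9). The cells with more *MPO* were spread unevenly, with 265, 297, 71 and 47 in hashtags 0252 to 0255 against 558, 555, 720 and 702 of the others. The direction was the same within each hashtag for these 5 genes. The ratio ranged from 1.37 to 1.62 for *CTSD*, from 1.33 to 1.62 for *CTSC* and from 1.11 to 1.72 for *CTSZ*, but the interval reached 1 in hashtags 0253 and 0255 for *CTSH* and in 0252 and 0254 for *CTSW*.

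Collagen cells had *CTSB*, *CTSW* and *LGMN* 2-fold higher than all other cells, 3 of 8 genes (11.4% of all genes), and none 2-fold lower (7.02%). The 34 cells that also passed the C1Q gate differed from the 95 that did not. *CTSB* was 497 CPM in the former (443 to 555) and 190 in the latter (169 to 214), *CTSS* was 61.5 and 10.9, *CTSH* 102 and 22.4 and *CTSC* 482 and 232. *LGMN* did not follow, at 55.0 (38.1 to 76.8) and 74.8 (61.5 to 90.1). With those 34 cells left out, *CTSB* and *LGMN* kept their calls, *CTSW* lost its own, and *CTSS* and *CTSH* became 2-fold lower. With at most 10% mitochondrial UMIs only *LGMN* kept its call. *CTSB* was 171 then, 177 with gates of 10 UMIs and 186 in cells of a single gate. By hashtag, *CTSB* in collagen cells was 491, 417, 249 and 132 in hashtags 0252 to 0255. The C1Q gate was passed by 5 of 15, 13 of 29, 7 of 21 and 9 of 64 of these cells in the same order. The part of these cells in the *CTSB* levels was not tested.

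Within C1Q cells, the levels of most of these proteases followed the amount of C1Q. The 809 cells were ranked by their C1Q CPM and cut into 3 bins of 270, 269 and 270 cells with pooled C1Q levels of 496, 1326 and 4025. From the lowest to the highest bin, *CTSB* was 196, 281 and 507 CPM, and *CTSC* was 366, 541 and 854. *LGMN* went from 20.3 through 24.0 to 56.3, *CTSS* from 74.3 through 96.3 to 146, *CTSZ* from 369 through 397 to 581 and *CTSH* from 146 through 175 to 225. *CTSD* was 190, 251 and 272, and *CTSW* did not climb, at 26.4, 24.3 and 24.0. The highest bin exceeded the lowest in all 4 hashtags for these genes other than *CTSW*, which was lower in hashtags 0253 and 0255. *CTSD* peaked in the middle bin in hashtags 0253 (317, 398 and 339) and 0255 (135, 212 and 179). In hashtag 0252 *CTSB* went from 164 to 642 and in hashtag 0255 from 157 to 289. The macrophage marker *CD14* rose with C1Q, from 8.59 to 246, and median depth fell, from 16873 to 11196 UMIs, and the part of depth was not tested.

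**Figure D3:**
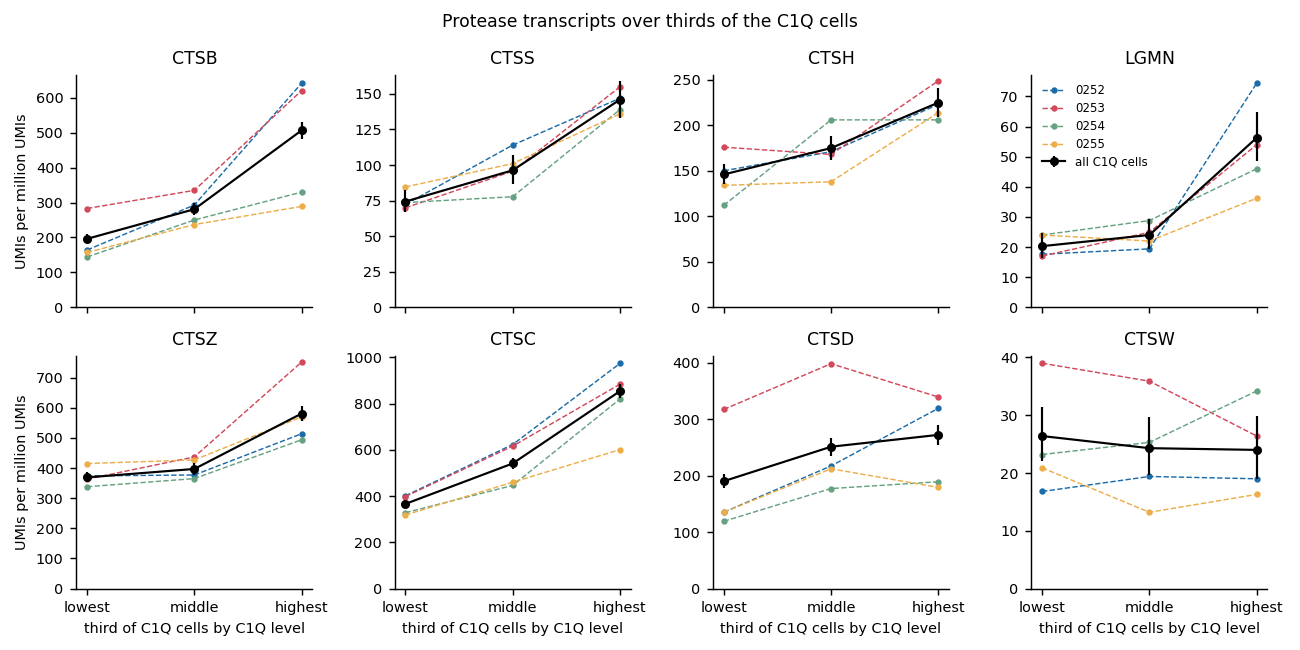
CPM of each protease gene (vertical axis) in C1Q cells of the lowest, middle and highest C1Q level (horizontal axis), pooled with 95% intervals and for each hashtag. *CTSB* climbs from 196 to 507 and *CTSC* from 366 to 854, whereas *CTSW* stays between 24.0 and 26.4.

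C1Q cells also divided by HLA class II, and here *CTSD* and *LGMN* went in opposite directions. Of the 809 cells, 104 had fewer than 5 *HLA-DRA* UMIs, a split made after values had been seen. *CTSD* was 541 CPM (507 to 577) in these and 181 (173 to 189) in the 705 with *HLA-DRA*, a ratio of 2.99 (2.76 to 3.23). It was 2.24, 2.78, 2.36 and 3.65 in hashtags 0252 to 0255. *LGMN* was 10.5 without and 34.8 with *HLA-DRA*, a ratio of 0.300 (0.176 to 0.481) and lower in all 4 hashtags. The level without *HLA-DRA* rested on 18 UMIs, with 2, 11, 4 and 1 in hashtags 0252 to 0255. In hashtag 0254 the interval of the ratio was 0.105 to 1.04. *CTSZ* was lower too, at 337 against 453, in all 4 hashtags. *CTSB* was higher when pooled, at 416 against 291, but lower in hashtag 0252, where the ratio was 0.539 (0.394 to 0.721). *CTSW* was 50.6 against 20.8, but 60 of its 87 UMIs without *HLA-DRA* came from hashtag 0253. Without that hashtag it was 33.2 against 19.8, and the ratio in hashtag 0252 was 0.947. *CTSH* did not separate, at 183 against 176.

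The C1Q cells without *HLA-DRA* differed in other genes as well. They held less C1Q, with *C1QA* at 238 against 531 CPM, *C1QB* at 142 against 530 and *C1QC* at 399 against 831. Several proteases followed the C1Q level above, and its part in this contrast was not tested. *TREM2* was 280 against 126 CPM, *APOE* 697 against 269 and *SPP1* 5235 against 1287. Other macrophage markers were lower, with *MS4A7* at 54.0 against 116, *CD14* at 56.4 against 86.5 and *MRC1* at 5.81 against 12.8. The granule genes *MPO* and *PRTN3* were 539 against 143 and 421 against 133. *CD74*, the invariant chain that *CTSS* trims, was 570 against 2819, while *CSF1R* was 230 against 267. They made up 25.2% of the C1Q cells of hashtag 0253 (19.6 to 31.6) and between 5.76 and 12.2% of those of the other 3 hashtags. When only these 104 cells stood for the C1Q group, *CTSD* and *CTSW* joined the genes at 2-fold higher, and *CTSZ* and *LGMN* left them.

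**Figure D4:**
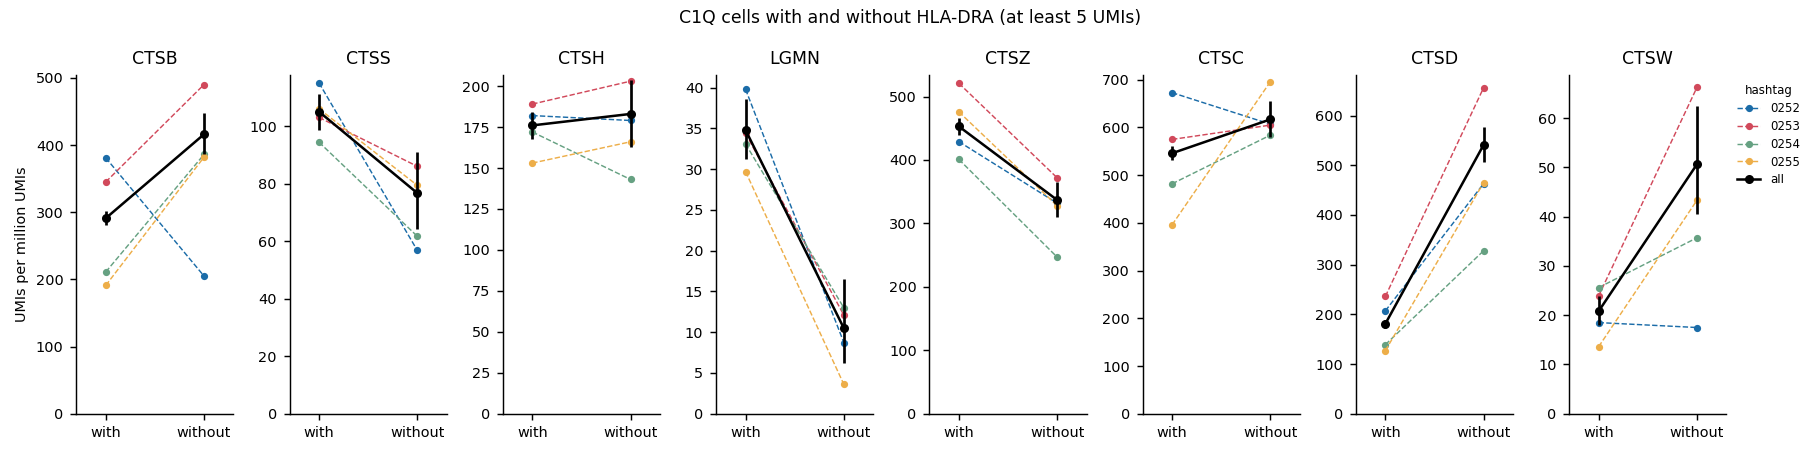
Protease levels in C1Q cells without and with *HLA-DRA*, in CPM (vertical axes from 0, 1 panel a gene), pooled with 95% intervals and for each hashtag. *CTSD* is higher without *HLA-DRA* in all 4 hashtags (541 against 181 pooled), and *LGMN* is lower (10.5, from 18 UMIs, against 34.8).

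Differences between hashtags were set against the share of all genes with as large a spread. In C1Q cells, *CTSB*, *CTSD*, *CTSC* and *CTSW* differed at least 1.5-fold between the highest and the lowest hashtag, 4 of 8 genes, where 26.2% of genes of at least 100 UMIs did. *CTSD* was 224, 346, 158 and 170 CPM in hashtags 0252 to 0255, a ratio of 2.19 (1.97 to 2.44), and *CTSB* was higher in both 0252 and 0253 than in 0254 and 0255. *CTSC* fell from 668 in hashtag 0252 through 583 and 492 to 434 in hashtag 0255. *CTSS*, *CTSZ*, *CTSH* and *LGMN* stayed within 1.5-fold. C1Q cells without *HLA-DRA* were more frequent in hashtag 0253, where *CTSD* was highest. In C1Q cells with *HLA-DRA*, *CTSD* was 207, 236, 139 and 127 in hashtags 0252 to 0255. In those without it, *CTSD* was 463, 656, 328 and 465. The part of this make-up in the spread of *CTSD* between hashtags was not tested.

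In *HLA-DRA* cells, 5 of 8 genes differed by this amount, *CTSB*, *CTSD*, *CTSH*, *CTSW* and *LGMN*, against 21.1% of all genes. *LGMN* was 13.0 in hashtag 0253 and 24.2, 23.1 and 26.7 in hashtags 0252, 0254 and 0255, while *CTSW* was highest in 0253, at 34.8, and lowest in 0255, with a ratio of 2.90 (1.95 to 4.41). After thinning, 2 genes were called so. Thinning lowers the counts, and a gene under the minimum of UMIs for hashtag calls cannot be called. *CTSW* and *LGMN* had only 237 and 249 UMIs in these cells before thinning. *CTSB*, *CTSD* and *CTSH* had 1140, 1206 and 932 UMIs and ratios of 1.59, 1.67 and 1.63 before thinning, near the limit of 1.5. How much of the smaller number of calls came from the minimum was not tested, so it cannot be read as a smaller spread. In HBD/PF4 cells 2 of 5 genes with enough UMIs differed, *CTSB* and *CTSZ* (29.8% of all genes), *CTSZ* by 1.70-fold (1.55 to 1.88). In *EPX* cells it was 1 of 4, *CTSD* (33.8%), from 157 in hashtag 0252 to 102 in 0255.

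CD34/GATA2 cells had 1 of 8 genes past 1.5-fold, *CTSS* (8.42% of all genes), at 4.75, 5.58, 8.04 and 8.87 in hashtags 0252 to 0255. *LGMN* had a ratio of 1.54 there before the pseudocount, with an interval of 0.874 to 2.82. Cells without a gate had 3 of 8, *CTSB*, *CTSZ* and *CTSH* (12.5%), each highest in hashtag 0253. Over all kept cells 1 of 8 differed, *CTSB* (9.41%), at 77.5, 91.7, 62.3 and 59.3. A pooled value holds both the levels within groups and the shares of the groups, and the part of each was not tested. C1Q cells made up 11.4, 10.7, 11.1 and 9.36% of hashtags 0252 to 0255, with *CTSB* at 369, 383, 228 and 215 in them. *ELANE* cells made up 2.72, 1.80, 0.379 and 0.382%, with a pooled *CTSB* of 37.0.

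Other genes of the lysosome were counted from lists. In C1Q cells 11 of 26 lysosomal enzymes and membrane proteins were 2-fold higher (6.65% of all genes) and none lower (6.28%), with a median log2 ratio of 0.92 against -0.10 for all genes. Examples are the saposin precursor *PSAP* at 235 CPM (103 over all cells), the progranulin gene *GRN* at 206 (72.8) and the acid phosphatase *ACP5* at 39.3 (7.09). In *HLA-DRA* cells 1 of 26 was higher, *PLBD1* (2.65% of all genes), and in CD34/GATA2 cells 2 of 26 were lower (4.55%), shares near those of all genes. None of 5 genes for delivery to the lysosome reached 2-fold in C1Q cells. The mannose 6-phosphate receptor gene *M6PR* was 134 there and 104 in CD34/GATA2 cells. Of 5 transcription factors, 3 were 2-fold higher in C1Q cells (6.65% of all genes), *TFEB* (30.2 against 8.39 over all cells), *TFEC* (24.4 against 11.5) and *SPI1* (624 against 325). *TFEB* was also 2-fold higher in *HLA-DRA* cells, at 29.9.

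All 4 antigen processing genes, *CD74*, *HLA-DMA*, *HLA-DMB* and *IFI30*, were 2-fold higher in C1Q cells (6.65% of all genes) and *HLA-DRA* cells (2.65%). They were 2-fold lower in *EPX* (6.16%), *ELANE* (10.5%), *CPA3* (16.4%), HBD/PF4 (7.17%) and CD34/GATA2 cells (4.55%). Since *HLA-DRA* cells were gated on a class II gene, the rise of *CD74*, *HLA-DMA* and *HLA-DMB* there may follow from the gate. *CD74* was 2500 CPM in C1Q cells and 1521 in *HLA-DRA* cells. Of 7 further cathepsins that could be tested, *CTSL* was high in collagen (102) and C1Q cells (53.8) and 2.63 in *HLA-DRA* cells. The serine protease *CTSG* had 151 in *ELANE* cells and 20.4 in *EPX* cells. *CTSK*, the osteoclast cathepsin, was at most 1.91 in any group.

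The inhibitors were split between cell types. *CST3*, the secreted cystatin C, was 1858 CPM in C1Q cells, 857 in *HLA-DRA* cells and 129 in *EPX* cells. *CST7*, cystatin F, which acts inside the lysosome and inhibits cathepsin C, was 271 in *ELANE* cells and 152 in *EPX* cells but 1.56 in C1Q cells, where *CTSC* was highest. *CSTA*, the cytoplasmic stefin A, was 324 in *ELANE* cells and 36.1 in C1Q cells. Of the 9 inhibitors, 4 were 2-fold higher in *ELANE* cells (*CSTA*, *CST7*, *SERPINB1* and *SERPINB8*), where 5.37% of all genes were, and 4 were 2-fold lower in *HLA-DRA* cells, where 4.85% were.

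Likeness between genes was described by Pearson's r of log2(CPM + 1) over 29 points, the groups of each hashtag with at least 20 cells. The points share 1 library and differ in depth, and no p is given. Among the 8 genes, *CTSH* and *CTSS* were most alike (0.94), then *CTSB* with *CTSS* and with *LGMN* (0.80 each), whereas *CTSD* and *CTSZ* had an r of -0.07. *CTSS* was nearest to *FGL2*, *TYMP* and *CSF2RA* (0.971, 0.959 and 0.956) and *CTSH* to *TNFRSF1B*, *CCDC88A* and *NAAA* (0.977, 0.942 and 0.935). *CTSZ* was nearest to *CAP1*, *GSN* and *TACC1* (0.919, 0.906 and 0.890) and *CTSD* to *SEPP1*, *ATP2B4* and *SBF2* (0.913, 0.863 and 0.853). *LGMN* was nearest to *ACTG1*, *ARHGAP12* and *MAML2* (0.925, 0.919 and 0.917) and *CTSC* to *TPT1*, *DPYD* and *RAB42* (0.915, 0.855 and 0.852). *CTSW* had the weakest neighbors, *FAM21C*, *KCNMB3* and *FAM179B* (0.803, 0.795 and 0.777).

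The genes lie apart in the genome, in hg19 coordinates. *CTSD* (chromosome 11, 1773982 to 1785803) overlaps 2 annotated genes on its own strand, and *CTSB* (chromosome 8, 11700033 to 11727042) overlaps 1 within an intron, so some of their reads could belong to those. *CTSC* (chromosome 11, 87998237 to 88092852) and *CTSZ* (chromosome 20, 57560741 to 57583293) overlap genes on the opposite strand only. *CTSS* (chromosome 1, 150702555 to 150738433), *CTSH* (chromosome 15, 79213400 to 79241916) and *LGMN* (chromosome 14, 93170152 to 93215024) overlap none.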

How the data were processed

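Nonadherent cells of day 5 were sequenced by the droplet method. The authors ran Cell Ranger 6.0.1 on hg19 and deposited raw UMI counts of genes and hashtags, with a hashtag call for each of 10836 barcodes. The calls were used as deposited. Cells with 1 hashtag and at most 36000 UMIs, 6000 genes and 18% mitochondrial UMIs were kept, 7550 of 8488.

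Counts were summed over the cells of a group and scaled to 1000000 (CPM). Intervals are exact Poisson for levels, exact conditional for ratios and Clopper-Pearson for shares, at 95%. They cover counting error only. A gene counted as higher or lower past 2-fold (1.5-fold between hashtags, in groups of at least 20 cells in each hashtag and for genes of at least 100 UMIs), with a pseudocount of 1 CPM. Calls are set beside all 14767 genes of at least 50 UMIs. Shares were also computed after thinning each cell to 5000 UMIs, which left out 68 cells. Doublets were treated by the hashtag calls, and Scrublet was run as an alternative.

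The genes described are the 8 members in each group, lists of related genes, and the 3 genes most like each member (those of *CTSB* are not reported here). Members and lists were chosen with earlier results of these data known. Gates, splits by *ITGA2B*, *MPO*, *HLA-DRA* and C1Q level and the *CTSW* cells rest on measured genes and are descriptions. *TPSB2* was not among the features. The steps were tested on simulated data. Alternatives planned were gates of 3 and 10 UMIs, gates per depth, single gates, a 10% mitochondrial limit, no limit on depth, Scrublet, thinning, equal weight of hashtags, a pseudocount of 10 CPM and no minimum for background genes. Chosen after seeing the data were leaving out collagen cells with C1Q, each hashtag in turn, and C1Q cells with *HLA-DRA*.

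The tools were scanpy 1.11.5 with Scrublet, scipy 1.17.1, numpy 2.4.6, pandas 2.3.3 and matplotlib 3.10.9 in Python 3.11.15.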

Additional observations from a re-analysis of the deposited data

Results flagged for a closer look

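Barcodes without a hashtag call, which the comparisons do not use, also carried transcripts of the proteases. The 809 such barcodes that met the same limits had 38.5 *CTSB*, 123 *CTSD*, 9.09 *CTSS*, 116 *CTSZ*, 243 *CTSC*, 27.8 *CTSH*, 17.2 *CTSW* and 3.29 *LGMN* CPM, each above the limit that a count of 0 allows. In called cells these levels were 74.0, 156, 25.3, 202, 270, 48.1, 17.6 and 10.3. The makeup of the barcodes differed as well. C1Q cells were 0.742% of them (0.273 to 1.61) against 10.7% of the called cells, *HLA-DRA* cells 0.618% against 8.50% and CD34/GATA2 cells 47.5% against 24.4%. Within CD34/GATA2 cells, 384 barcodes without a call had 36.5 *CTSB* CPM (32.1 to 41.3) against 33.0 in called cells, 235 *CTSC* against 232, 114 *CTSD* (107 to 123) against 129 and 2.16 *LGMN* (1.21 to 3.57) against 3.42. Other groups differed more, with 29.1 *CTSB* against 51.9 in cells without a gate, and 285 *CTSZ* against 408 and 17.1 *CTSH* against 6.24 in HBD/PF4 cells.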

How the results depend on the processing

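In C1Q cells the 6 higher genes kept their calls under all alternatives but that of C1Q cells without *HLA-DRA*. Removing the 62 kept cells marked by Scrublet (0.821%) changed no call. With gates of 3 UMIs, 0 genes were higher in *HLA-DRA* cells, 3 lower in *CPA3* cells, and 2 differed by hashtag in *EPX* cells. With gates of 10 UMIs, 1 gene was higher and 3 lower in *CPA3* cells, 1 lower in collagen cells, 3 lower in *ELANE* cells, 2 differed by hashtag in CD34/GATA2 cells, and *CTSW* in collagen cells fell to 15.0 CPM, below other cells. Gates per depth gave 1 higher in *CPA3* cells, 2 lower in *ELANE* cells and a *CTSC* share of 34.4% in *CPA3* cells, where *CTSD* then led. With these gates *CTSW* also lost its call in collagen cells. Single gates gave 2 lower in collagen and 2 lower in *CPA3* cells. At most 10% mitochondrial UMIs left 736 cells. Higher were then 1 gene in collagen cells and 0 in *ELANE*, *HLA-DRA* and HBD/PF4 cells, and lower were 2 in collagen, 2 in *ELANE*, 2 in *CPA3*, 1 in *HLA-DRA* and 5 in HBD/PF4 cells. *CTSW* in collagen cells was 9.44, the *CTSC* share in *CPA3* cells 30.2%, and 5 genes differed by hashtag in cells without a gate and 7 over all kept cells. In the 63 C1Q cells left, *CTSB*, *CTSD* and *LGMN* were 651, 430 and 84.6. No limit on depth gave 2 lower in *CPA3* cells. Thinning gave 3 lower in *CPA3* cells, and by hashtag 2 genes in *HLA-DRA*, 1 in HBD/PF4, 6 in ungated and 2 in all kept cells. Thinned counts can fall under the minimum of UMIs for hashtag calls. How much of the smaller number of calls in *HLA-DRA* and HBD/PF4 cells came from this was not tested, so it cannot be read as a smaller spread. Equal weight of hashtags gave 2 lower in *ELANE* and 3 in *CPA3* cells. A pseudocount of 10 CPM gave 0 higher in *HLA-DRA* cells and 1, 0 and 2 lower in *EPX*, *ELANE* and CD34/GATA2 cells. With C1Q cells without *HLA-DRA* alone, 2 were lower in CD34/GATA2 cells, and without collagen cells that pass the C1Q gate 2 were lower in collagen cells. Without hashtag 0252, 3 were lower in *ELANE* cells, and without hashtag 0253, 3 in *CPA3* cells. The causes were not tested. No paired analysis was possible because the 4 hashtags are parts of 1 library and no test was made. The 21 *CPA3* cells and the 7 and 6 *ELANE* cells of hashtags 0254 and 0255 limit what can be said of them.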
